A study of Rattus norvegicus with 6 samples.

Results

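The aryl hydrocarbon receptor, its partner and repressor, and the detoxification genes it is known to switch on were followed in rat primary cultures labelled as microglia and given polystyrene nanoplastics. They were Ahr (the receptor), Arnt (its DNA-binding partner), Ahrr (its repressor) and the target genes Cyp1a1, Cyp1b1, Aldh3a1, Nqo1, Ugt1a6, Ugt1a7c and Tiparp, 10 genes in all. Of these, 9 had a row in the deposited table of 16876 gene symbols, and all 9 passed the filter on low counts, which left 11679 genes. Tiparp was not analysed here. The genes were selected on their known roles and on their fold changes in this same comparison, so those fold changes, and the number of genes past a threshold, describe the group and are no test of it.

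RNA was measured in rat (Rattus norvegicus) cells labelled as primary cultured microglia, kept for 24 h with PSNPs, polystyrene nanoplastics, in 3 libraries, or, in the other 3, with the near-infrared dye IR-813. Markers of astrocytes and of the oligodendrocyte lineage were abundant in all 6 libraries, as given below, so the label does not describe all of the RNA. The cells were shaken off mixed co-cultures grown in serum-containing medium, and no strain, age, dose or number of animals is given in the sources used here. Untreated cells were not analysed here. Higher or lower therefore means with PSNPs relative to IR-813, and which of the treatments moved a gene cannot be told apart. The labels do not state whether the replicates are separate cultures or animals, so errors and p-values reflect the spread between these libraries, which may be technical.

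The aryl hydrocarbon receptor is a transcription factor that waits in the cytosol bound to heat-shock protein 90 until a flat aromatic compound or a tryptophan metabolite binds it. It then enters the nucleus, pairs with ARNT and binds the xenobiotic response element, whose core is GCGTG. Its best-known targets oxidise and conjugate foreign compounds, and AHRR and TIPARP, themselves targets, damp the response. In the brain the receptor is known for its roles in the inflammatory behaviour of microglia and astrocytes.

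To show where that core lies near the start sites, the 250 bases before the start of transcription were taken from RefSeq (GRCr8, a later build than the mRatBN7.2 named in the submitters' processing notes) for 8 of the 10 genes, matched by symbol. Windows of Cyp1a1 and Aldh3a1 were not used here. The sequences are shown for the repressor Ahrr and for the targets Cyp1b1, Ugt1a6, Ugt1a7c and Nqo1, whose counts are described below, written 5′ to 3′ on the gene's strand, with GCGTG, or CACGC where the core lies on the other strand, in capitals.
Ahrr, GRCr8 chr1:30821969-30822218, plus strand: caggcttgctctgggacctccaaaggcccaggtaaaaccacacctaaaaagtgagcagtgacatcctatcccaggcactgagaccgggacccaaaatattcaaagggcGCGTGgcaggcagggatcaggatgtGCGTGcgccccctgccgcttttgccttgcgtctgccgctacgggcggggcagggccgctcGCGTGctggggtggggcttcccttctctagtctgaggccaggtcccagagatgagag
Cyp1b1, GRCr8 chr6:21094315-21094564, plus strand: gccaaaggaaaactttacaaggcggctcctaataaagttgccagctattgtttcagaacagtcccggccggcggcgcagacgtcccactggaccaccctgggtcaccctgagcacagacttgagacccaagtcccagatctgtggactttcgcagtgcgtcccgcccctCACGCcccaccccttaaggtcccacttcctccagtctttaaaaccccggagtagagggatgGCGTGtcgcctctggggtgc
Ugt1a6, GRCr8 chr9:96194768-96195017, plus strand: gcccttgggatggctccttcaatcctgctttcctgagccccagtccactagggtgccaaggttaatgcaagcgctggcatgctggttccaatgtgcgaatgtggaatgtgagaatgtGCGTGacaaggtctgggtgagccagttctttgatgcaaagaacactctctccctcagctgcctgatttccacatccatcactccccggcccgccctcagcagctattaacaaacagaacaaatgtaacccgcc
Ugt1a7c, GRCr8 chr9:96187132-96187381, plus strand: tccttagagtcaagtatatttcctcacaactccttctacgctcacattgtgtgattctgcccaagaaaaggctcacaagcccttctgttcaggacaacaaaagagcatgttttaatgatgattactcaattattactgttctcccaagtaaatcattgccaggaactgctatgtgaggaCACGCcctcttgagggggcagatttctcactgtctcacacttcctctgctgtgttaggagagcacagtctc
Nqo1, GRCr8 chr19:52220268-52220517, minus strand: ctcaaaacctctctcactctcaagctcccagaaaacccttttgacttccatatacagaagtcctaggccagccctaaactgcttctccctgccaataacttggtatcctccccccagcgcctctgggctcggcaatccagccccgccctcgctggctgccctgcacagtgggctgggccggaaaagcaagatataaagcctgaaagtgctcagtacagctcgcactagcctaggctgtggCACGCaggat
The Ahrr window held 3 copies of GCGTG on its own strand, beginning 142, 117 and 57 bases before the start. The Cyp1b1 window held 2, the nearer of them beginning 20 bases before the start, and those of Ugt1a6, Ugt1a7c, Nqo1, Arnt and Tiparp held 1 each. The copy before Ugt1a6 began 133 bases before the start. The Ahr window held none. With both strands searched, 25.9% of 33469 promoter windows of this length held at least 1 copy. The longer form TNGCGTG, which contains GCGTG, was found before Ahrr and Cyp1b1 and in 4.09% of all windows. An antioxidant response element core, TGACNNNGC, was found in the Arnt window in 2 copies, in none of the other 7 windows, and in 10.1% of all windows. These are matches of letters within a short window and do not show that a factor binds there.

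The libraries held 19166605 to 22553507 counts. PSNPs replicate 3 stood apart from PSNPs replicates 1 and 2 along the second principal component, which took 15.6% of the variance. Its values changed with the factor by which the authors' deposited log2 values appear to divide each gene's count, called the length-like factor here, although it was not checked against transcript lengths. Genes with a factor over 4 were lower in PSNPs replicate 3 than in the other PSNPs libraries by a median of 0.50 on the log2 scale, and genes with a factor under 1 were higher by a median of 0.41. The summed level of 8 microglia markers was 506 to 644 CPM with PSNPs and 757 to 1003 CPM with IR-813, with 6 of the 8 lower. The 10 astrocyte markers summed to 9799 to 11028 CPM with PSNPs and 7643 to 9916 CPM with IR-813, and overlapped between the groups. On the deposited log2 scale the astrocyte gene Gfap averaged 10.35 with PSNPs and 10.12 with IR-813, and the microglia gene Aif1 5.45 with PSNPs and 6.66 with IR-813, in libraries labelled as microglia. In bulk RNA, fewer cells of a type and less RNA per cell cannot be told apart. Of the astrocyte markers 6 of 10 were higher with PSNPs, of 12 oligodendrocyte-lineage markers 11 were lower and 1 higher, and of 10 tested neuron markers 8 were lower. Among all tested genes 20.9% were higher and 20.1% lower by the same test. The oligodendrocyte-lineage markers summed to 4504 to 5215 CPM with PSNPs and 7259 to 8419 CPM with IR-813. The part of these shifts in the values below was not tested. Of 7 infiltrating myeloid and lymphoid markers in the table, 5 were at 0 in every library, and the list summed to at most 0.159 CPM.

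Of the 9 genes, 6 were higher with PSNPs and passed an adjusted p under 0.05 by edgeR's quasi-likelihood test (Benjamini-Hochberg over all tested genes), 0 were lower, and 3 did not pass. Lower genes were also 0 at an unadjusted p under 0.05 and by DESeq2. Over all tested genes 20.9% were called higher and 20.1% lower, 41.0% in all. The 6 were the targets Cyp1a1, Aldh3a1, Nqo1, Ugt1a6 and Ugt1a7c and the repressor Ahrr, and the 3 that did not pass were Ahr, Arnt and Cyp1b1. All 6 were higher by more than 2-fold, and 4.67% of all tested genes were called higher with such a fold. Every PSNPs library lay above every IR-813 library for 6 of the 9 genes, the same 6, and for 30.0% of all tested genes. Every PSNPs library lay below every IR-813 library for 1 of the 9, Arnt, and for 31.4% of all tested genes. The median log2 fold change of the 9 genes was 1.35, against −0.01 over all tested genes.

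**Figure D1:**
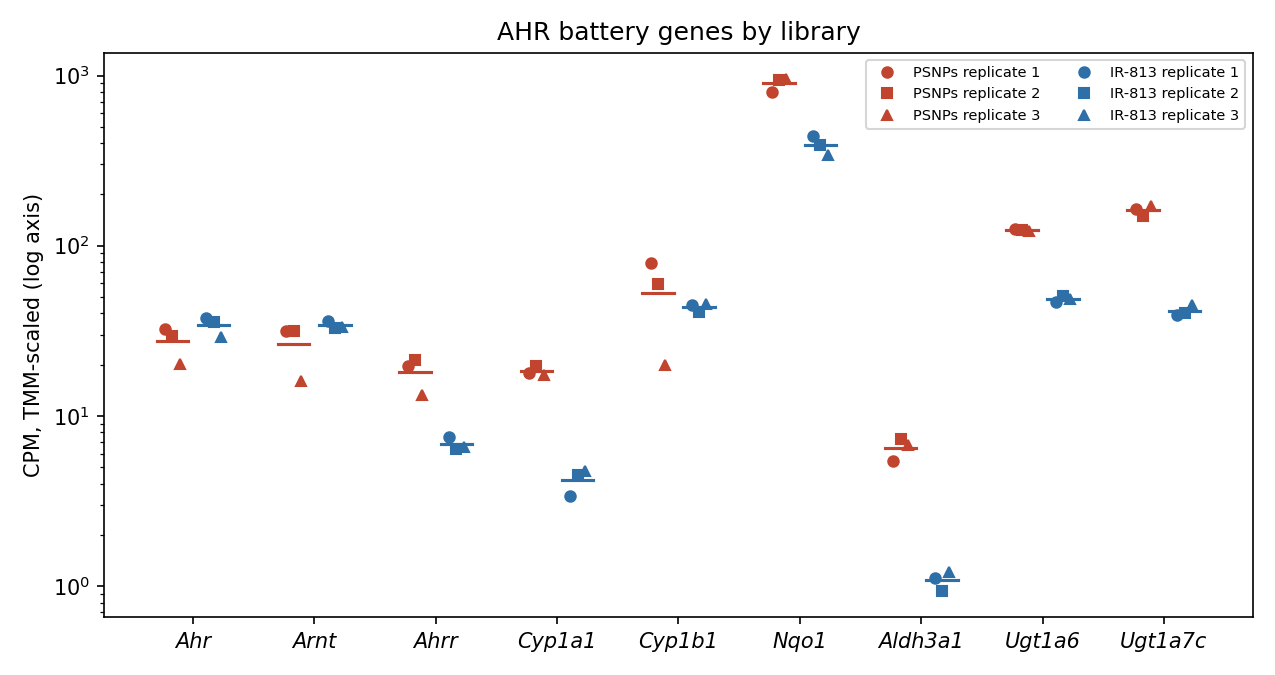
CPM on TMM-scaled library sizes (log axis) of the 9 genes in each of the 6 libraries, with PSNPs in red left of IR-813 in blue, 1 symbol per replicate and a line at the mean of 3 libraries. All PSNPs libraries lie above all IR-813 libraries for Ahrr, Cyp1a1, Nqo1, Aldh3a1, Ugt1a6 and Ugt1a7c (30.0% of all tested genes). They lie below them all for Arnt (31.4% of all tested genes). PSNPs replicate 3 is the lowest PSNPs library for Ahr, Arnt, Ahrr, Cyp1a1, Cyp1b1 and Ugt1a6.

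The receptor gene did not pass, and its mean was lower. Ahr had 32.4, 29.5 and 20.2 CPM in PSNPs replicates 1 to 3, against 37.7, 35.7 and 29.2 CPM in IR-813 replicates 1 to 3. The groups overlapped, since IR-813 replicate 3 lay just below PSNPs replicates 1 and 2. The log2 fold change was −0.32 ± 0.19 (estimate ± SE), and it was −0.14 without PSNPs replicate 3. Ahr has a length-like factor of 5.20, and the 1873 tested genes with a factor over 4 had a median log2 fold change of −0.29. The part of this factor in the Ahr value was not tested.

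Arnt, which pairs with the receptor and also with the hypoxia factor HIF1A, had 31.6, 31.4 and 16.0 CPM with PSNPs, against 36.1, 32.9 and 33.2 CPM with IR-813. All 3 PSNPs libraries lay below all 3 IR-813 libraries, as for 31.4% of all tested genes, but 2 of them by little. The log2 fold change of −0.37 ± 0.25 became −0.11 without PSNPs replicate 3. The ratio of Ahr to Arnt counts within a library was 1.02, 0.939 and 1.26 with PSNPs and 1.05, 1.08 and 0.880 with IR-813, so that the groups overlapped.

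Ahrr, whose protein competes with the receptor for ARNT, had 19.6, 21.2 and 13.3 CPM with PSNPs, against 7.52, 6.43 and 6.52 CPM with IR-813. The mean was 18.0 ± 4.16 CPM with PSNPs and 6.82 ± 0.604 CPM with IR-813 (SD, n = 3 each), a log2 fold change of 1.40 ± 0.20. PSNPs replicate 3 was the lowest of the PSNPs libraries and still stood well above every IR-813 library. The ratio of Ahrr to Ahr counts, which needs no scaling between libraries, was 0.605, 0.719 and 0.657 with PSNPs and 0.199, 0.180 and 0.223 with IR-813. Ahr and Ahrr have similar length-like factors (5.20 and 4.73) and were lower in PSNPs replicate 3 than in the other PSNPs libraries by the same amount, −0.61 on the log2 scale for each. On this ratio the groups lay far apart, at 0.660 ± 0.0570 with PSNPs and 0.201 ± 0.0216 with IR-813 (mean ± SD, n = 3 each).

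**Figure D2:**
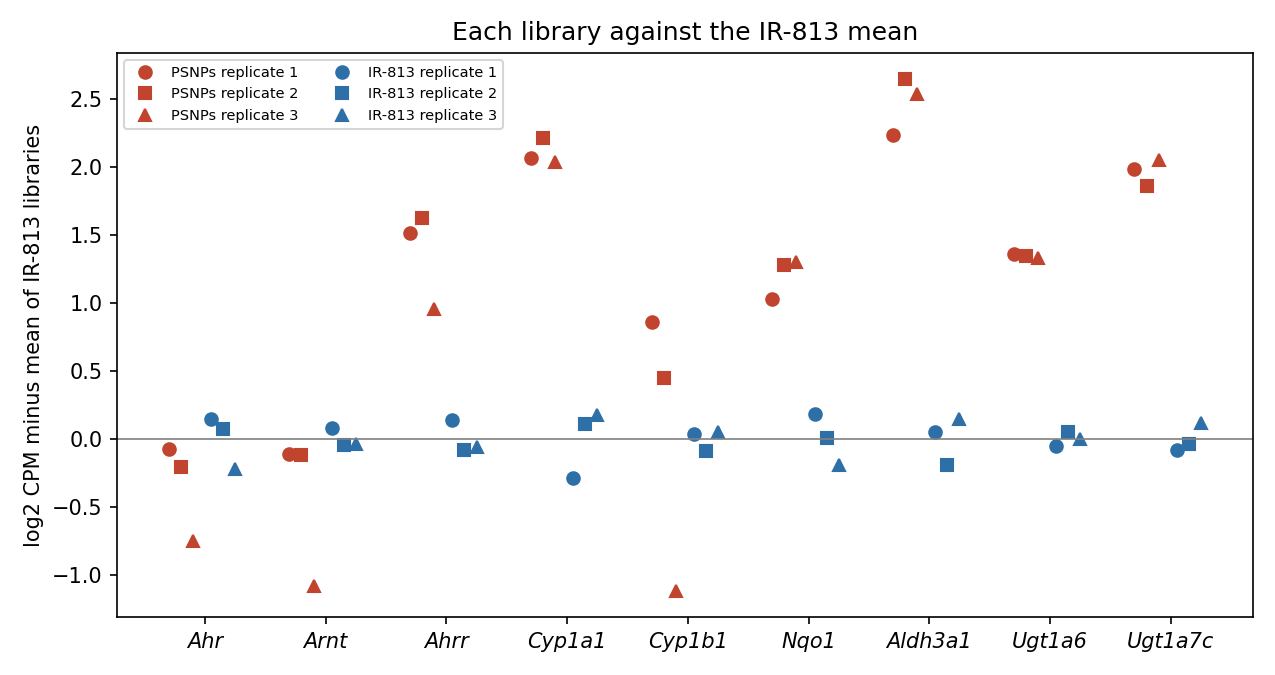
Log2 CPM of each gene in each library minus the mean of the IR-813 libraries, with PSNPs in red left of IR-813 in blue. PSNPs replicate 3 (red triangles) falls away from the other PSNPs libraries for Ahr, Arnt, Ahrr and Cyp1b1, by −0.61 to −1.78, and lies with them for the other 5 genes.

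Cyp1a1 encodes the monooxygenase that oxidises polycyclic aromatic hydrocarbons and is the most widely used readout of the receptor. It had 17.7, 19.7 and 17.4 CPM with PSNPs, against 3.40, 4.52 and 4.72 CPM with IR-813. These rest on 334 to 386 counts per PSNPs library and 76 to 102 counts per IR-813 library. The 3 PSNPs libraries lay close together, and the log2 fold change was 2.12 ± 0.16, a 4.34-fold higher level. Its sister gene Cyp1a2, a second classic target in liver, had 1 count in PSNPs replicate 2 and none in the other libraries.

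Cyp1b1, a monooxygenase of the same family that is expressed mainly outside the liver, did not pass, and its PSNPs libraries differed widely. It had 79.4, 59.6 and 20.04 CPM with PSNPs, against 44.9, 41.0 and 45.2 CPM with IR-813. In PSNPs replicates 1 and 2 it lay above every IR-813 library and in PSNPs replicate 3 below them all. The log2 fold change was 0.28 ± 0.43, and it was 0.67 ± 0.12 without PSNPs replicate 3 and −0.13 ± 0.41 without PSNPs replicate 1. PSNPs replicate 3 stood 1.78 log2 units below the mean of the other PSNPs libraries, and 2.05% of all tested genes were as low or lower there. Its length-like factor was 2.24, and the median difference of the 2736 genes with a factor between 2 and 3 in that library was 0.00. The part of this factor in the Cyp1b1 values was not tested. The ratio of Cyp1b1 to Cyp1a1 counts was 4.48, 3.03 and 1.15 with PSNPs and 13.2, 9.07 and 9.58 with IR-813, so it was lower in every PSNPs library. Cyp1b1 is also known from pericytes, fibroblasts and endothelial cells. The 12 markers of those cells summed to 62.7, 59.0 and 48.7 CPM with PSNPs and 118, 94.3 and 141 CPM with IR-813, with Col1a2 listed at 0 in every library. The part of those cells in the Cyp1b1 values was not tested.

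Nqo1, a quinone reductase whose gene answers to both the receptor and the oxidative-stress factor NRF2, had the highest level of the group on the deposited log2 scale in both treatments. It had 795, 946 and 959 CPM with PSNPs, against 442, 392 and 341 CPM with IR-813. The log2 fold change was 1.20 ± 0.13, and all 3 PSNPs libraries lay far above the highest IR-813 library. Aldh3a1, which oxidises aromatic and medium-chain aldehydes, had the fewest counts and the largest fold change. It had 5.42, 7.27 and 6.73 CPM with PSNPs, against 1.12, 0.932 and 1.20 CPM with IR-813. That is 118 to 137 counts per PSNPs library and 20 to 26 per IR-813 library, and the log2 fold change was 2.57 ± 0.19. On the deposited log2 scale, where an added constant understates the change of low genes, the difference was 1.59 for Aldh3a1 and 1.63 for Cyp1a1. The ratio of Aldh3a1 to Cyp1a1 counts was 0.306, 0.369 and 0.386 with PSNPs and 0.329, 0.206 and 0.255 with IR-813, so that the groups overlapped.

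Ugt1a6 and Ugt1a7c encode glucuronosyltransferases that attach glucuronic acid to planar phenols. They are transcribed from alternative first exons of 1 locus and share their downstream exons, so reads from the shared part cannot be assigned with certainty. Ugt1a6 had 125, 124 and 122 CPM with PSNPs, against 47.0, 50.3 and 48.6 CPM with IR-813, with a log2 fold change of 1.35 ± 0.07. Ugt1a7c had 164, 150 and 171 CPM with PSNPs, against 39.0, 40.2 and 44.8 CPM with IR-813, with a log2 fold change of 1.97 ± 0.10. Both were higher in every PSNPs library, and Ugt1a6 had the smallest standard error of the 9 genes. Of the counts assigned to this pair, Ugt1a7c took 56.7%, 54.8% and 58.3% with PSNPs, against 45.4%, 44.4% and 48.0% with IR-813. The exact 95% binomial intervals, which cover counting error only, ran from 53.5% to 59.6% over the PSNPs libraries and from 42.2% to 50.2% over the IR-813 libraries. The Ugt1a6 and Ugt1a7c rows held 94.8% to 97.4% of all counts given to the 8 Ugt1a symbols in the table. Among the others, Ugt1a2 had 177, 177 and 170 counts with PSNPs and 55, 37 and 76 counts with IR-813.

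**Figure D3:**
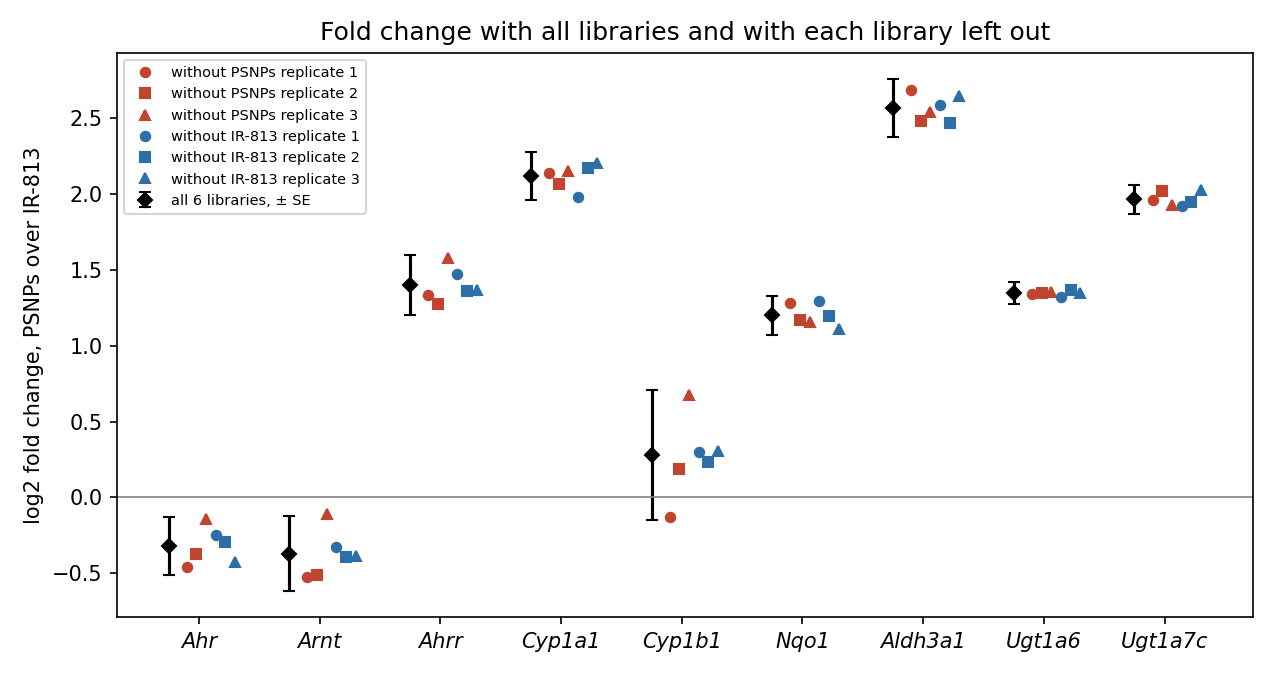
Log2 fold change (PSNPs over IR-813) of the 9 genes with all 6 libraries (black diamonds, bars are ± 1 SE) and with each library left out in turn (red, a PSNPs library left out; blue, an IR-813 library). The values of the 6 called genes stay between 1.11 and 2.68, and those of Cyp1b1 run from −0.13 to 0.67.

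Levels of different genes were compared on the deposited log2 scale, whose scaling is unstated. It appears to divide counts by a factor for each gene, which was not checked against transcript lengths here, so the order is that of this scale. With PSNPs the order by mean was Nqo1 (9.41), Ugt1a7c (6.24), Ugt1a6 (5.80), Cyp1b1 (4.44), Arnt (3.56), Cyp1a1 (3.04), Ahr (2.63), Aldh3a1 (2.33) and Ahrr (2.26). With IR-813 it was Nqo1 (8.20), Ugt1a6 (4.49), Cyp1b1 (4.36), Ugt1a7c (4.32), Arnt (3.95), Ahr (2.92), Cyp1a1 (1.40), Ahrr (1.29) and Aldh3a1 (0.74). The libraries of neighbours overlapped with PSNPs for Cyp1b1 and Arnt, Arnt and Cyp1a1, Ahr and Aldh3a1, and Aldh3a1 and Ahrr. With IR-813 they overlapped for Cyp1b1 and Ugt1a7c and for Cyp1a1 and Ahrr. Cyp1a1 stood above Ahr in every PSNPs library and below it in every IR-813 library on this scale.

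Among all other tested genes, the nearest in pattern over the 6 libraries was found for each called gene as the smallest root mean square difference of centred log2 CPM. It was Slco1c1, a thyroid hormone and organic anion transporter gene, for Cyp1a1 (0.11), and Pipox, a peroxisomal pipecolate and sarcosine oxidase gene, for Aldh3a1 (0.17). It was Vamp5 for Nqo1 (0.06), the fractalkine gene Cx3cl1 for Ugt1a6 (0.05), Slc27a3 for Ugt1a7c (0.06) and Cpt1a, which brings fatty acids into mitochondria, for Ahrr (0.11). The log2 fold changes of these nearest genes lay between 1.21 and 2.68, and their likeness to those of the battery genes follows from the choice. Other genes were almost as near, such as Thbs3 for Nqo1 (0.06) and Sec14l4 for Cyp1a1 (0.11).

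The rest of the pathway was described with 6 further lists, which share some genes and hold 95 genes in all. Of the 68 tested, 24 were higher and 19 lower with PSNPs, with a median log2 fold change of 0.03, where 20.9% of all tested genes were higher and 20.1% lower. The counts of the lists below are set against those shares, and nothing particular to a list is drawn from them. Library-size scaling alone, without TMM, lowered the share of higher among all called genes to 40.5%, in place of 50.9%. The adjusted p-values below come from the edgeR quasi-likelihood fit, adjusted over all tested genes by Benjamini and Hochberg's method.

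Of 12 tested chaperones, coactivators and ubiquitin-ligase subunits of the receptor, 1 rose, 2 fell and 9 did not pass, with a median log2 fold change of −0.09. The 3 calls among 12 genes are a smaller share than the 41.0% called among all tested genes. Ddb1, an adaptor of CUL4 ubiquitin ligases, rose to 859 ± 55.2 CPM with PSNPs, against 637 ± 9.68 CPM with IR-813 (adjusted p = 0.00693). The acetyltransferase coactivator gene Crebbp fell to 58.2 ± 8.73 CPM with PSNPs, against 86.4 ± 3.64 CPM with IR-813 (adjusted p = 0.00999). The steroid receptor coactivator gene Ncoa1 fell by 0.72 ± 0.24 on the log2 scale (adjusted p = 0.0454), but that p was 0.0505 without PSNPs replicate 1 and 0.126, 0.117 and 0.0954 without IR-813 replicates 1, 2 and 3, and it lay between 0.000383 and 0.126 over 13 alternatives. The chaperone genes Hsp90ab1 (−0.01 ± 0.11) and Ptges3 (−0.12 ± 0.08) did not pass. Hsp90aa1, the other HSP90 gene listed, had 9.70 ± 5.97 CPM with PSNPs, against 24.1 ± 2.84 CPM with IR-813. Its log2 fold change of −1.31 ± 0.47 did not pass either (adjusted p = 0.0619). Every PSNPs library lay below every IR-813 library for Hsp90aa1, as for 31.4% of all tested genes.

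Of 11 tested genes of the same bHLH-PAS protein family and the related period genes, 2 rose, 4 fell and 5 did not pass, with a median of −0.34. The share of higher genes was near the 20.9% among all tested genes, and that of lower genes was above the 20.1%. The genes with the smallest p were the clock genes Arntl (−0.99 ± 0.13, adjusted p = 0.00161), Per2 (adjusted p = 0.00209) and Per1 (−0.86 ± 0.13, adjusted p = 0.00240), all of which fell. Per2 had 18.8 ± 3.03 CPM with PSNPs and 37.6 ± 3.29 CPM with IR-813. Arntl encodes BMAL1, and it had 31.8 ± 4.64 CPM with PSNPs and 63.3 ± 5.57 CPM with IR-813. The neural ARNT paralog Arnt2 was at 176 ± 36.4 CPM with PSNPs and 175 ± 6.82 CPM with IR-813, a log2 fold change of 0.01 ± 0.15.

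**Figure D4:**
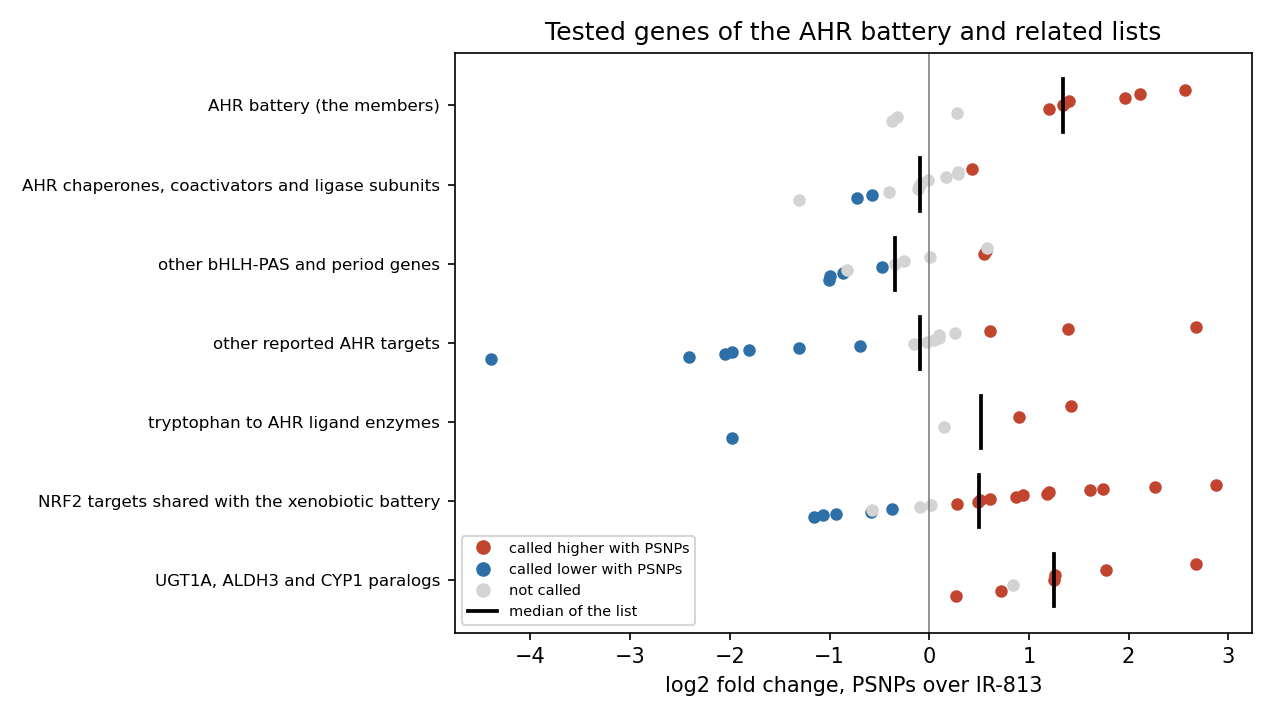
Log2 fold change (PSNPs over IR-813) of every tested gene of the AHR battery and of 6 related lists, red for called higher, blue for called lower, grey for not called, with a black line at each list's median. The medians of the AHR battery (1.35) and of the list of paralogs (1.25) lie to the right of 0. Ahr and Arnt of the battery lie to the left of 0, and the other reported targets (median −0.09) spread to both sides.

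Genes reported elsewhere as receptor targets, outside the classic battery, included rises and falls. Of 16 tested, 3 rose, 7 fell and 6 did not pass, with a median of −0.09, against 20.9% higher and 20.1% lower among all tested genes. Slc7a5, a carrier of large neutral amino acids that include tryptophan, fell to 121 ± 1.96 CPM with PSNPs, against 501 ± 64.7 CPM with IR-813 (adjusted p = 0.000101). Tgfa, a ligand of the epidermal growth factor receptor, fell to 12.3 ± 1.21 CPM with PSNPs, against 48.5 ± 3.47 CPM with IR-813 (adjusted p = 0.000101). Nfe2l2, which encodes NRF2, rose by 0.61 ± 0.08 on the log2 scale (adjusted p = 0.00118). Vegfb, at 48.9 ± 1.15 CPM with PSNPs and 49.8 ± 2.11 CPM with IR-813, did not pass.

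Of 12 enzymes that turn tryptophan into ligands of the receptor or break those down, 8 were in the table and 4 passed the filter on low counts. The entry enzymes Tdo2 and Ido1 were listed at 0 in every library. Of the 4 tested, 2 rose and 1 fell, against 20.9% higher and 20.1% lower among all tested genes. Their median was 0.52. It was 0.89 among genes of at least 5 CPM in 3 libraries and 0.82 on the deposited log2 scale, where fewer genes were tested. The kynurenine transaminase gene Aadat rose to 11.9 ± 1.26 CPM with PSNPs, against 4.45 ± 0.519 CPM with IR-813 (adjusted p = 0.000624). Qprt, which uses up quinolinate, rose by 0.90 ± 0.22 on the log2 scale (adjusted p = 0.0159, but 0.0626 or 0.0572 when IR-813 replicate 1 or 2 was left out, and 0.00105 to 0.0626 over 13 alternatives). Kmo, the kynurenine monooxygenase gene found in microglia, fell to 0.608 ± 0.228 CPM with PSNPs, against 2.45 ± 0.365 CPM with IR-813 (adjusted p = 0.00223). This rests on few counts, 7 to 18 per PSNPs library and 48 to 62 per IR-813 library, and Kmo was tested in only 11 of the 13 alternatives.

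The NRF2 list holds NRF2 targets other than Nqo1, with Nfe2l2 itself and Keap1 also listed. Of its 20 tested genes 12 rose, 5 fell and 3 did not pass, with a median of 0.50. Among all tested genes 20.9% were higher and 20.1% lower. The 5 that fell were Osgin1 (−1.15), Hmox1 (−1.07), Txnrd1 (−0.93), Srxn1 (−0.58) and Gclc (−0.37), as log2 fold changes. The xenobiotic epoxide hydrolase gene Ephx1 rose to 263 ± 19.8 CPM with PSNPs, against 35.7 ± 4.06 CPM with IR-813 (adjusted p = 5.24e-05). Gsta1 rose by 1.61 ± 0.11 and Gsta4 by 2.26 ± 0.16 on the log2 scale (adjusted p = 0.000152 and 0.000172), both glutathione transferase genes, of a family of similar copies whose split is uncertain. Of 7 tested paralogs of the battery's enzymes, 6 rose and 1 did not pass, with a median of 1.25, which was 0.83 among genes of at least 5 CPM in 3 libraries and 0.73 on the deposited log2 scale. Nqo2, the sister reductase of Nqo1, rose to 11.1 ± 1.28 CPM with PSNPs, against 4.66 ± 0.587 CPM with IR-813 (adjusted p = 0.00120). Aldh3b1, an aldehyde dehydrogenase gene, rose by 0.72 ± 0.11 (adjusted p = 0.00300) and Ugt1a2 by 1.77 ± 0.25 on the log2 scale (adjusted p = 0.00190), and the Ugt1a paralogs share the exons of Ugt1a6 and Ugt1a7c.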

How the data were processed

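Poly(A)-selected RNA of 3 PSNPs and 3 IR-813 libraries was measured. The authors deposited whole-number read counts per gene symbol and, per library, log2 values of unstated scaling. Per the submitters' processing notes the build was mRatBN7.2 and bcl2fastq was used. Aligner, counter, annotation and strand use are likewise unstated (not given in the sources used here). Hence reads of overlapping or antisense genes cannot be told apart. Columns named con were matched to samples titled IR-813, and NPS to PSNPs.

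Counts were filtered with filterByExpr, scaled with TMM and tested with edgeR 4.0.16 (R 4.3.3), quasi-likelihood, treatment as the only term, Benjamini-Hochberg adjustment, threshold 0.05. CPM uses TMM-scaled sizes, log2 CPM a prior count of 2, and the SE is the log2 fold change divided by the square root of F. Unlogged deposited values (minus 1) were proportional to counts within 0.05 log2 units for at least 99.1% of 10559 genes with 20 or more counts everywhere, once a gene and a library factor were allowed. Of simulated 2-fold changes in 200 of 11617 genes the test recovered 72.5%. Far more genes were called in the data (41.0% of those tested), so this share need not hold for them. An exact test of 3 against 3 cannot go below 0.1 and was not used. Alternatives were other scalings and filters, DESeq2 1.42.0, limma 3.58.1 on the deposited log2 values, a replicate block and leaving out each library.

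The genes of the battery, the lists and the markers were chosen with earlier results of these data known. From each further list the text names the 3 called genes with the smallest p, and other genes named there were chosen after their values were seen. Sequences were matched by symbol to RefSeq (GRCr8), from which no other coordinates were used, and 14386 of the 16876 symbols were in its gene table. Intervals cover counting error only, since no molecular identifiers mark separate molecules.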

Additional observations from a re-analysis of the deposited data

How the results depend on the processing

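Over 13 alternatives, between 6 and 7 genes of the AHR battery were called higher and 0 lower, the 7th being Cyp1b1 without PSNPs replicate 3 (log2 fold change 0.67). Cyp1b1 turned to −0.13 without PSNPs replicate 1 and is the 1 battery gene that changed direction. The fold changes ran from 1.63 to 2.21 for Cyp1a1, 1.59 to 2.68 for Aldh3a1, 1.11 to 1.29 for Nqo1, 1.27 to 1.37 for Ugt1a6, 1.89 to 2.03 for Ugt1a7c and 0.97 to 1.58 for Ahrr, with the lowest values of Cyp1a1, Aldh3a1 and Ahrr on the deposited log2 scale. Ahr ran from −0.46 to −0.14 and Arnt from −0.52 to −0.11, and neither passed. Between 18 and 29 other pathway genes were called higher and between 13 and 23 lower. Leaving out 1 library gave 1339 to 3591 higher and 1473 to 3478 lower genes of all tested, with 1339 and 1473 without IR-813 replicate 2 and 1416 higher without IR-813 replicate 1. With the replicate block 2035 genes were higher and 2124 lower, and 6 battery genes higher. The deviations of libraries with the same number correlated across genes at −0.01, 0.01 and 0.12, and those with different numbers at −0.17 to 0.18. With 3 libraries per group, these values cannot tell whether the same number marks a shared culture or preparation. Of 232 values of the 18 other pathway genes named for the smallest p in their list, 226 kept their call and 6 lost it (Ncoa1 in 4, Qprt in 2). Each battery gene had at least 20 counts in every library.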

Other observations

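Grouped after their values were seen, the battery genes differed in how PSNPs replicate 3 compared with the mean of the other PSNPs libraries. For Cyp1a1, Aldh3a1, Nqo1, Ugt1a6 and Ugt1a7c the difference was −0.10 to 0.15 log2 units. For Arnt it was −0.97, which 8.78% of all tested genes reached or passed, and for Ahrr −0.61, reached or passed by 16.9%. Over all tested genes 20.5% were lower there by more than 0.5 log2 units and 6.64% were higher.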
